A study of Mus musculus with 59 samples.

Results

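The nuclear genes for subunits of respiratory complexes II, III and IV and of complex V, the ATP synthase, were followed in cortex and hippocampus of mice labelled heterozygous for Slc25a1, for Mrpl40 or for both. Members were the gene rows of the raw count table whose symbol is Sdha, Sdhb, Sdhc, Sdhd or Cyc1, or starts with Uqcr, with Cox4 to Cox8 or with Atp5. The rule found 47 of 57180 gene rows, with 4 in complex II, 9 in complex III, 18 in complex IV and 16 in complex V. Pseudogene symbols ending in -ps, 7 in all, were left out. The rule takes in 2 genes that are not subunits in the strict sense, Atp5s (a coupling factor of the ATP synthase) and Cox7a2l (a factor of respiratory supercomplexes), and leaves out Atpif1 and Usmg5, which act at the ATP synthase under other symbols.

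Slc25a1 encodes the citrate carrier of the inner mitochondrial membrane, and Mrpl40 a building block of the mitochondrial ribosome, in its large subunit. Both genes lie in the mouse region matching the human 22q11.2 deletion, and the design asks what the loss of a copy of either gene, or of both, does to the transcripts of these tissues. The animals were 30 male mice, of which 29 have a library from each tissue. Libraries labelled wild type (Mrpl40 +/+,Slc25a1 +/+) number 9 in cortex and 8 in hippocampus. The groups labelled Slc25a1 het (Mrpl40 +/+,Slc25a1 -/+), Mrpl40 het (Mrpl40 -/+,Slc25a1 +/+) and double het (Mrpl40 -/+,Slc25a1 -/+) hold 7 libraries each in either tissue. The sources used here do not name the strain, the age or how the alleles were made.

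The respiratory chain passes electrons from complexes I and II through ubiquinone to complex III, then through cytochrome c to complex IV, which reduces oxygen. Complexes I, III and IV pump protons across the inner membrane, and complex V uses their return to make ATP, on which synaptic transmission and ion pumping in brain depend. Complex II is encoded in the nucleus alone, whereas complexes III, IV and V also hold subunits made inside the mitochondrion, so their assembly draws on 2 genomes. Several subunits of complexes IV and V come as paralogs that differ between tissues, such as the heart and muscle forms Cox6a2 and Cox7a1, the testis form Cox6b2 and the lung form Cox4i2.

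Promoter sequences were read from RefSeq on GRCm38.p6 for the 34 members that matched the table, as 37 windows of 300 bases each, 250 before and 50 after the start of transcription. The windows were searched on both strands for 3 motifs of factors that act at promoters of respiratory genes. The NRF1 motif (GCGCA and GCGC with any 1 base between them) stood in 10 of the 34 members (29.4%), against 4.6% of all 32851 windows. The ETS motif CCGGAAG, read by GABP among others, stood in 12 members (35.3%), against 8.86% of all windows. The YY1 motif AAGATGGCG stood in 2 members, Atp5j and Atp5j2 (5.88%, against 1.4%), and no base was shared between matches of different motifs. Cox6a1, Sdhd, Atp5h and Atp5k held both the NRF1 and the ETS motif. A match is a description of the letters, not evidence of binding.

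The 4 promoters printed here belong to Uqcrc1, which was lower in hippocampus than in cortex, to Uqcr11, named in the genotype comparisons, and to the paralogs Cox6b1 and Cox6b2, which differed between the tissues in opposite directions. Each runs 5′ to 3′ on the gene's own strand, and capitals mark motif matches on either strand. They lie at chr9:108936398-108936697 (Uqcrc1, plus strand, 2 NRF1 matches), chr10:80406772-80407071 (Uqcr11, minus strand, 1 ETS match), chr7:30626065-30626364 (Cox6b1, minus strand, 1 ETS match) and chr7:4753045-4753344 (Cox6b2, minus strand, no match).
Uqcrc1: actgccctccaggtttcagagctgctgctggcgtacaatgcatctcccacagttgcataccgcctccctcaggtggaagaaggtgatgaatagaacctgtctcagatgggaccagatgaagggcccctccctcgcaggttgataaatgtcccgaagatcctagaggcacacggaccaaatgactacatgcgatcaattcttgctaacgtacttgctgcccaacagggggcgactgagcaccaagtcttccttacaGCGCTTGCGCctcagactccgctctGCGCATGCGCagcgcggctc
Uqcr11: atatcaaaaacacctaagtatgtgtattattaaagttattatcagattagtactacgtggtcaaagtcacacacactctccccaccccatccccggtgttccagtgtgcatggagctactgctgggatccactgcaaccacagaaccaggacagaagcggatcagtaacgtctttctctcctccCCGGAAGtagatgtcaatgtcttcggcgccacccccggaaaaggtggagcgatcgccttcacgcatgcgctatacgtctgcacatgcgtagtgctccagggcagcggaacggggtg
Cox6b1: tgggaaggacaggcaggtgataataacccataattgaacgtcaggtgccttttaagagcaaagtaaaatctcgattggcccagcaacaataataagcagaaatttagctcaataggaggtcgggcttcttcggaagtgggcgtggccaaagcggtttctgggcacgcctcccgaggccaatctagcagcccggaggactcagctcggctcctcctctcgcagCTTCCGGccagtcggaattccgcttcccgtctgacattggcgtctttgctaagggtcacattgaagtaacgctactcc
Cox6b2: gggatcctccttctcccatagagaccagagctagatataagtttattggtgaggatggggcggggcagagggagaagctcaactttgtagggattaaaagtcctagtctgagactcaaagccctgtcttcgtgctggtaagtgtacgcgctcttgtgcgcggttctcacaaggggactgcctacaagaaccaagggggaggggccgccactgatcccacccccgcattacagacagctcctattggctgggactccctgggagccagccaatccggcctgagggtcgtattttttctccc

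The libraries held between 21443017 and 32120906 counts in gene rows. The 37 rows of the mitochondrial genome were at 0 in every library, so the subunits made inside the mitochondrion were not measured. Slc25a1 went against the label in 6 animals (wild type 6 and 7, Slc25a1 het 12 and 13, double het 29 and 30), so genotypes are given as labelled and each direction by genotype refers to the labels. Its mean in cortex was 21.8 ± 5.41 CPM (counts scaled to the size of the library, SD, n = 9) in wild type and 15.1 ± 5.39, 22.7 ± 1.00 and 14.2 ± 4.95 CPM (n = 7 each) in Slc25a1 het, Mrpl40 het and double het. Mrpl40 had group means of 17.4 to 17.9 CPM in cortex and 15.2 to 16.0 CPM in hippocampus, so its count does not separate the labels. All 7 cortex markers tested were lower and 7 of 8 hippocampus markers were higher in hippocampus. In hippocampus 3 libraries stood apart by markers of neighbouring tissue: those of Mrpl40 het animal 22 (choroid plexus markers 76.4 CPM in sum) and double het animal 30 (96.3 CPM), against a median of 32.4 CPM, and that of Slc25a1 het animal 12 (cerebellar markers 594 CPM, against a median of 46.8 CPM).

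Levels were compared between genes per kilobase of the longest annotated protein-coding transcript, since a longer transcript yields more reads. The order of the genes depends on this choice, and the length of all exons joined gave another order for some. Of the 47 members, 44 passed the filter on low counts in each tissue and 45 in the joint fit of both tissues, which also kept Cox7b2. The 3 others were forms of complex IV subunits known from testis, heart and muscle. Cox8b averaged 0.0679 CPM in cortex and 0.109 CPM in hippocampus, and Cox7b2 0.213 and 0.260 CPM. Cox8c had 0 reads in all 30 cortex libraries, which allows up to 0.00362 CPM for the tissue (3 counts over the summed libraries, counting error only), and 1 read in 1 of 29 hippocampus libraries.

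The highest level per length was that of Atp5b, the catalytic beta subunit of the ATP synthase, with 524.0 CPM per kilobase in cortex and 515.5 in hippocampus. Cox4i1, the common form of complex IV subunit 4, followed at 468.0 and 398.6 CPM per kilobase, and Cox8a, the common form of the smallest subunit, at 373.5 and 321.3. Atp5a1, the alpha subunit that forms the F1 head with Atp5b, stood at 268 and 280 CPM per kilobase, and Cox6a1 at 244.7 and 225.0. Atp5g3, 1 of 3 genes for the c subunit of the rotor ring, stood at 232 and 238 CPM per kilobase. These 6 genes were the top 6 in cortex by this length. By the length of all exons joined Cox8a led in cortex at 331.8 CPM per kilobase, ahead of Atp5b at 237, and Atp5g3 had rank 11.

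Complexes II and III lay in the middle of this order. Sdha, the flavoprotein of complex II that oxidizes succinate, had 148 CPM per kilobase in cortex and 149 in hippocampus. Its iron-sulfur partner Sdhb had 76.6 and 67.8, and the membrane anchors Sdhd and Sdhc had 47.6 and 50.5 and 24.6 and 25.1 CPM per kilobase. The hinge protein gene Uqcrh led complex III at 182 and 162 CPM per kilobase. By the length of all exons joined it was about level with Uqcr10 in cortex (80.7 and 80.8 CPM per kilobase). The core proteins Uqcrc1 and Uqcrc2 had 106 and 79.8 CPM per kilobase in cortex and 92.4 and 89.2 in hippocampus. Their order turned with the length used. By all exons joined they had 42.4 and 59.3 CPM per kilobase in cortex and 37.0 and 66.3 in hippocampus. The catalytic pair, Cyc1 (cytochrome c1) and Uqcrfs1 (the Rieske protein), had 70.3 and 54.4 CPM per kilobase in cortex, and Uqcrq, a small subunit, was lowest of complex III at 38.0.

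The tissue-restricted paralogs and the c subunit gene Atp5g2 made up the lower end. In cortex Cox6a2 reached 5.46 CPM per kilobase, Atp5g2 3.47, Cox7a1 2.12, Cox6b2 2.09 and Cox4i2 1.42. Cox7c, which encodes a small ubiquitous subunit, stood at only 16.4 CPM per kilobase, and Atp5l, subunit g of the ATP synthase, at 17.7. Both have near-identical copies: 19.7% of the 100-base windows of Cox7c and 69.0% of those of Atp5l also occur in another annotated gene, so part of their reads may have been counted elsewhere or left out. The same holds for Atp5o (30.3% of windows), Atp5h (29.5%), Uqcrc2 (22.7%), Atp5f1 (16.8%), Uqcrb (15.8%) and Cox5a (13.6%), and for another 8 members between 1.48% and 9.90%. The levels of these 16 members are uncertain.

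**Figure D1:**
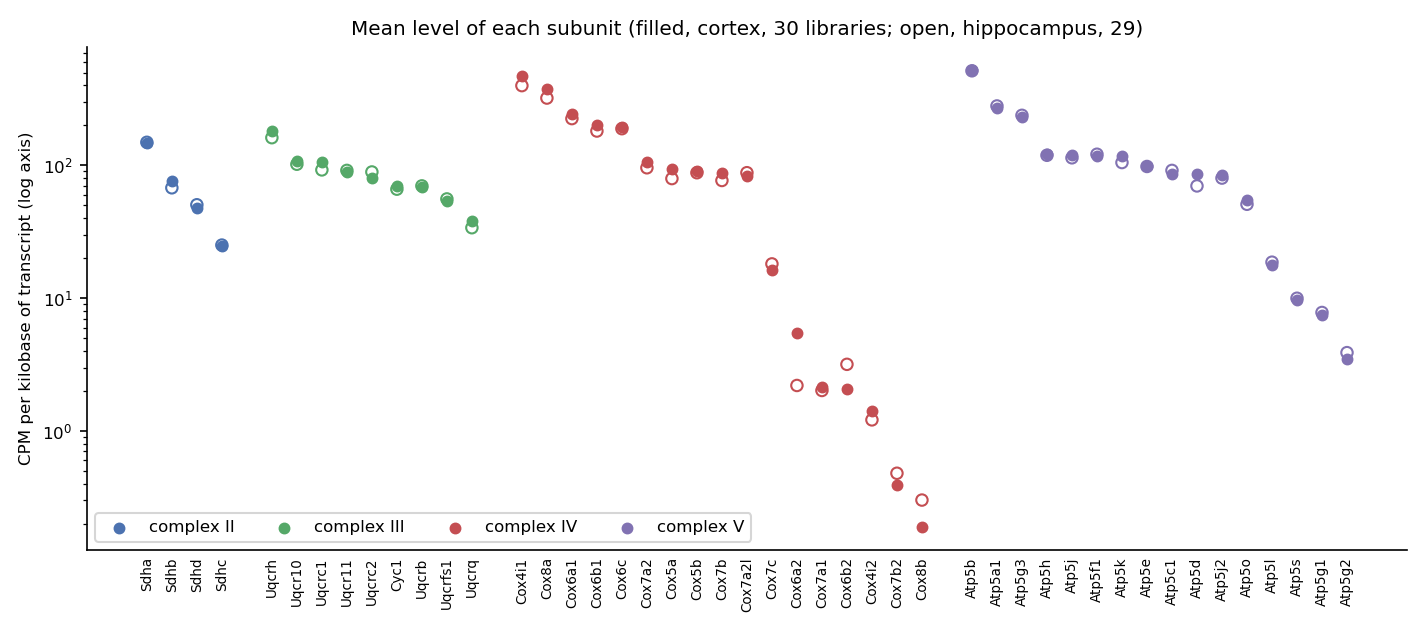
Mean CPM per kilobase of the longest protein-coding transcript (log axis) of each member by complex. Points are filled for cortex (30 libraries) and open for hippocampus (29 libraries). Atp5b, Cox4i1 and Cox8a lead, and the paralogs Cox6a2, Cox7a1, Cox6b2 and Cox4i2 lie near or under 5.46 CPM per kilobase. Cox8c is not drawn.

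Between the tissues most members changed, and complex IV was the complex with most members lower in hippocampus. In the joint fit of 29 animals, with the animal as a block, 31 of 45 members passed (68.9%), against 77.5% of all 21354 genes tested, a smaller share than among genes at large. By direction, 10 were higher (22.2%, against 39.8% of all genes) and 21 lower (46.7%, against 37.7%), and the members' median log2 fold change was -0.034, against 0.012 over all genes. Of complex IV, 10 of 16 tested members were lower and 3 higher, with a median of -0.14. Of complex III, 5 of 9 were lower and 1 higher (median -0.094). Complex II had 1 lower and 1 higher of 4, and complex V 5 lower and 5 higher of 16, with a median of 0.0016. In bulk tissue, fewer cells of a type and less RNA per cell cannot be told apart. Within wild-type animals alone, 23 members passed, 8 higher and 15 lower, against 60.6% of all genes (30.4% higher and 30.1% lower).

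In complex II the catalytic subunits behaved differently. Sdhb ranged from 81.6 to 96.9 CPM in cortex (median 86.7) and from 69.6 to 88.3 CPM in hippocampus (median 76.9). The hippocampus was lower in 28 of 29 animals, with overlap between the tissues, and the log2 fold change was -0.18 ± 0.018 (SE), with an edgeR adjusted p of 4.92e-11. Sdha, its partner, ranged from 399.8 to 463.7 CPM in cortex (median 430.9) and from 406.9 to 477.8 CPM in hippocampus (median 432.4). Its ranges overlapped almost wholly, and the difference of 0.0054 had a 95% interval of -0.028 to 0.039 and an adjusted p of 0.776. Sdhd, an anchor that holds the ubiquinone site with Sdhc, was higher in hippocampus by 0.08 ± 0.018 (adjusted p 1.62e-04, 25 of 29 animals).

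In complex III the 2 core proteins moved in opposite directions. Uqcrc1 ranged from 161.1 to 191.9 CPM in cortex (median 175.0) and from 141.5 to 175.1 CPM in hippocampus (median 150.5). It was lower in hippocampus in 28 of 29 animals, with some overlap, at -0.21 ± 0.018 (adjusted p 1.15e-12). Uqcrc2 ranged from 133.1 to 169.9 CPM in cortex (median 151.2) and from 153.9 to 193.9 CPM in hippocampus (median 169.9), higher in 28 of 29 animals at 0.16 ± 0.018 (adjusted p 6.86e-10). Uqcrc2 was the only member of complex III that was higher, and 22.7% of its windows are shared with another gene.

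Among the other members of complex III, Uqcrh fell by 0.18 ± 0.022 (adjusted p 2.69e-09) and Uqcrq, known as a ubiquinone-binding subunit, by 0.16 ± 0.021 (1.18e-08), each in 27 of 29 animals. Uqcr10 fell by 0.10 ± 0.025 (adjusted p 7.49e-04), and Cyc1, which hands electrons to cytochrome c, by 0.09 ± 0.020 (6.99e-05, 22 of 29 animals). With gene length and GC content trends taken out, Cyc1 stood at 0.037, so that its direction rests on that choice. Uqcrfs1 (0.04, adjusted p 0.0564), Uqcr11 (0.03) and Uqcrb (0.03) did not pass.

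In complex IV 8 common forms were lower in hippocampus, from the large Cox4i1 to the small Cox8a. Cox4i1 (chr8:120668222-120674207, plus strand, GRCm38 as all gene positions here) ranged from 331.9 to 395.7 CPM in cortex (median 359.3) and from 271.5 to 337.2 CPM in hippocampus (median 304.4). The hippocampus was lower in 29 of 29 animals and the ranges overlapped only at their edges, at -0.24 ± 0.018 (adjusted p 7e-14). Under the alternatives Cox4i1 lay between -0.24 and -0.13, and Cox8a between -0.22 and -0.12. Cox8a ranged from 188.5 to 227.7 CPM in cortex (median 204.5) and from 146.7 to 205.1 CPM in hippocampus (median 175.7), also lower in 29 of 29 animals, at -0.22 ± 0.019 (adjusted p 1.19e-12). Cox5a, which binds the subunit made from Cox4i1, ranged from 46.5 to 73.3 CPM in cortex (median 61.6) and from 35.5 to 63.8 CPM in hippocampus (median 51.3), a wide overlap at -0.23 ± 0.027 (1.63e-09). Cox7b (-0.21 ± 0.022, 1.76e-10), Cox6b1 (-0.15 ± 0.021, 3.03e-08), Cox7a2 (-0.15, 4.55e-08) and Cox6a1 (-0.13, 3.22e-06) were lower in 23 to 27 of 29 animals, and Cox6c by -0.05 (0.0245). The call of Cox6a1 is lost with length and GC content trends taken out, where it stood at -0.013.

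Not every common form followed. Cox5b, the zinc-binding partner of Cox5a, differed by -0.03 (adjusted p 0.0643). Cox7c was higher in hippocampus at 0.14 ± 0.032 (adjusted p 2.65e-04, 22 of 29 animals), and so was Cox7a2l at 0.07 ± 0.016 (1.9e-04, 26 of 29 animals). Part of the reads of both may be shared with copies.

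The largest fold between the tissues was that of Cox6a2 (ENSMUSG00000030785, chr7:128205435-128206387, minus strand), the heart and muscle form of subunit 6A. It ranged from 2.09 to 5.39 CPM in cortex (median 3.55) and from 0.323 to 2.51 CPM in hippocampus (median 1.47). The hippocampus was lower in 29 of 29 animals, though the ranges of the tissues overlapped, with a log2 fold change of -1.32 ± 0.094 (a fold of 0.400, adjusted p 1.23e-14). Its ubiquitous paralog Cox6a1 fell by 0.13, as given above. Cox6b2 (chr7:4751792-4753094, minus strand), the testis form of subunit 6B, went the other way, from 0.752 to 1.68 CPM in cortex (median 1.21) and from 1.09 to 2.68 CPM in hippocampus (median 1.90). It was higher in 26 of 29 animals at 0.58 ± 0.078 (a fold of 1.498, adjusted p 2.75e-08), whereas Cox6b1 was lower. Cox4i2, the lung form that responds to low oxygen, was lower at -0.25 ± 0.088 (9.49e-03, 22 of 29 animals), a call lost with length and GC content trends taken out (-0.17), and Cox7a1 (-0.07, adjusted p 0.526) and Cox7b2 (0.27, 0.208) did not pass.

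In complex V the clearest difference was in a subunit of the central stalk of the F1 head. Atp5d (chr10:80138632-80145818, plus strand), the delta subunit, ranged from 112.3 to 132.9 CPM in cortex (median 120.0) and from 84.7 to 119.2 CPM in hippocampus (median 98.6). It was lower in 29 of 29 animals with overlap at the edges, at -0.29 ± 0.019 (a fold of 0.818, adjusted p 3.61e-16), and between -0.30 and -0.17 under the alternatives. Atp5b ranged from 905.4 to 1129 CPM in cortex (median 1007) and from 903.1 to 1166 CPM in hippocampus (median 976.1), with no call at -0.028 ± 0.019 (adjusted p 0.175), though it passed with length and GC content trends taken out (-0.048, adjusted p 0.0178). Atp5a1 (0.06 ± 0.018, 3.95e-03, 25 of 29 animals) and the gamma subunit Atp5c1, the shaft that turns inside the head (0.07 ± 0.015, 4e-05, 24 of 29 animals), were higher in hippocampus. Atp5e, the epsilon subunit that sits beside delta, did not pass.

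Among the membrane part and the outer stalk, Atp5k (subunit e, which joins enzymes into dimers) fell by 0.16 ± 0.023 (adjusted p 2e-07, 25 of 29 animals), and Atp5o, which ties the stalk to the head, by 0.10 ± 0.020 (1.7e-05). Atp5j (subunit F6) and Atp5j2 (subunit f) each fell by 0.08. The 3 genes of the c subunit encode the same mature protein, and Atp5g3 (0.03, adjusted p 0.182) and Atp5g1 (0.05, 0.0936) did not pass. Atp5g2 was higher at 0.16 ± 0.067 (0.0285, 18 of 29 animals), a call lost when the 6 animals with Slc25a1 against their label were left out (0.14, adjusted p 0.12) and without the libraries that stand apart (0.14, 0.0662). Atp5f1 (0.04) and Atp5l (0.08) were also higher, the latter not with length and GC content trends taken out (0.069).

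Genes that work beside these enzymes but fall outside the rule were chosen for their function. Atpif1, the inhibitor of the ATP synthase, fell in hippocampus by 0.32 ± 0.026 (adjusted p 1.57e-13), and Cycs, the carrier between complexes III and IV, by 0.25 ± 0.021 (1.21e-12). Usmg5, a small subunit of the synthase, did not pass (0.02, adjusted p 0.46).

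Markers of cell types also differed between the tissues, and not in 1 direction. Of all genes tested, 39.8% were higher and 37.7% lower in hippocampus. All 8 interneuron markers were lower in hippocampus (median log2 fold change -0.84), with their sum between 1071 and 1385 CPM in cortex and between 772 and 1050 CPM in hippocampus. Pvalb, of fast-spiking interneurons, fell by 1.75 ± 0.10 and the potassium channel gene Kcnc2 of these cells by 0.82. No marker of the list was at 0, and the lowest mean was that of Vip at 10.9 CPM in hippocampus. The 4 excitatory neuron markers had a higher sum in hippocampus, from 5386 to 9504 CPM (median 8205), than in cortex, from 5697 to 6948 CPM (median 6438), with 2 of them higher and 1 lower by the test. Of 6 general neuron markers 5 were lower (median -0.32), with their sum between 6931 and 8261 CPM in cortex and between 4345 and 7291 CPM in hippocampus. Glial markers were higher in hippocampus in 5 of 7 astrocyte genes (median 0.33), 5 of 6 oligodendrocyte genes (0.23) and 7 of 8 microglia genes (0.16). The part of cell makeup in the difference between the tissues was not tested.

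**Figure D2:**
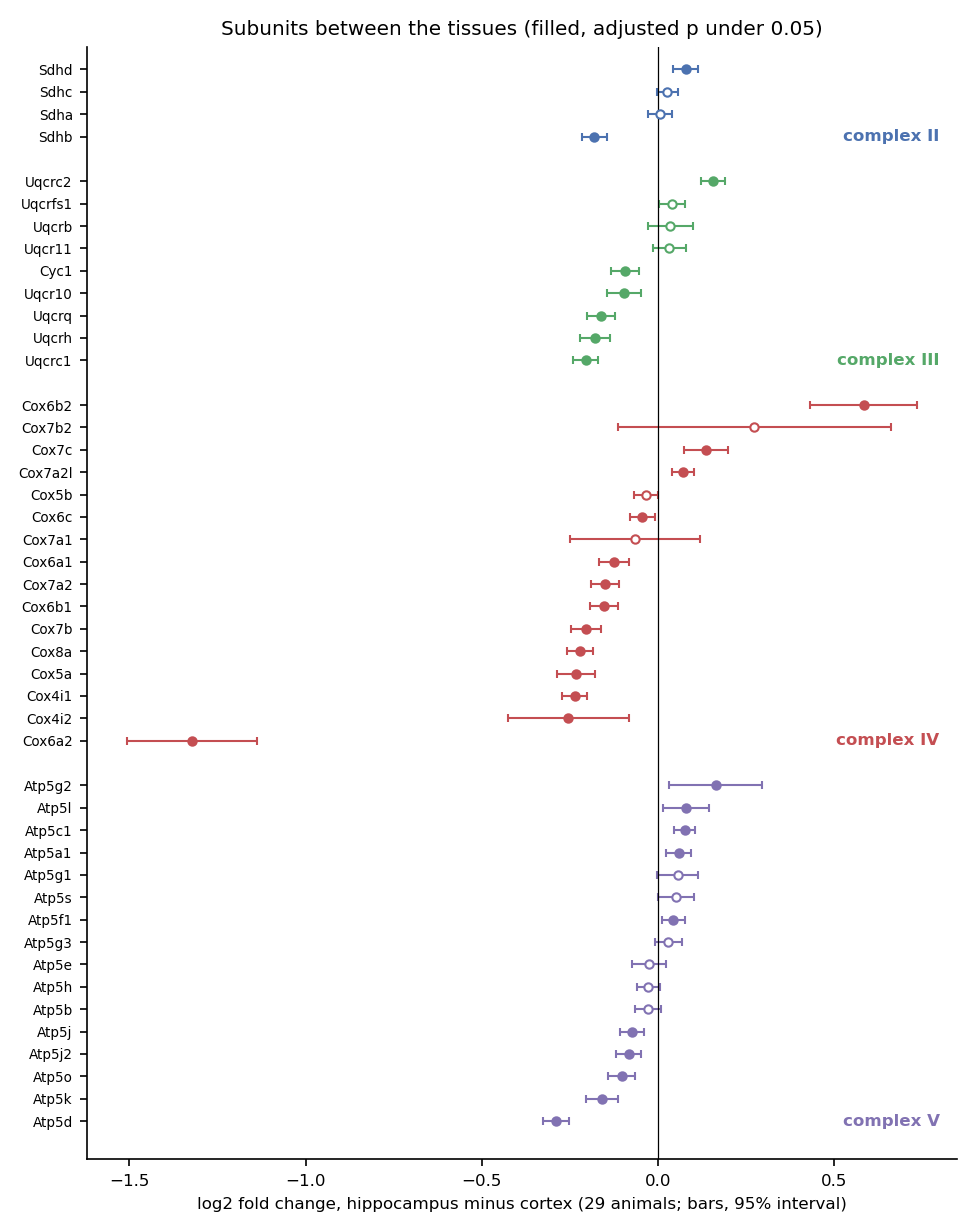
Log2 fold change of hippocampus minus cortex for the 45 members of the joint fit of 29 animals, by complex; bars are 95% intervals and filled points passed at an adjusted p under 0.05. Cox6a2 lies far below the rest at -1.32 and Cox6b2 above at 0.58, while most others lie between -0.29 and 0.16.

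The ratio of 2 paralogs within a library does not depend on library size. It compares 2 forms of the same subunit in 6 of the 7 pairs, and Cox7a2l, the supercomplex factor, with its paralog Cox7a2 in the other. Over 29 animals the log2 ratio of Cox6a2 to Cox6a1 counts went from -5.29 in cortex to -6.53 in hippocampus, a difference of -1.24 ± 0.121 (SE), lower in 29 of 29 animals. Expressed as a share, Cox6a2 supplied 2.58% ± 0.604 (SD) of the reads of the pair in cortex and 1.16% ± 0.466 in hippocampus. The ratio of Cox6b2 to Cox6b1 rose from -6.66 to -5.93, a difference of 0.73 ± 0.0822 in 28 of 29 animals, or a share of 0.971% against 1.64%. The ratio of Cox7a2l to Cox7a2 rose from 0.44 to 0.66, by 0.22 ± 0.0196 in 29 of 29 animals, with Cox7a2l at 57.5% ± 1.21 of the pair in cortex and 61.2% ± 1.29 in hippocampus. Each of these 3 had a two-sided paired permutation p of 2e-05, the smallest that 100000 resamples can give, and 4.67e-05 adjusted over the 7 pairs tested.

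The other 4 pairs did not differ between the tissues past the threshold. Cox4i2 supplied 0.29% of the Cox4i2 and Cox4i1 reads in either tissue (adjusted permutation p 0.82), and Cox7a1 to Cox7a2 had an adjusted permutation p of 0.458. Among the c subunit genes, Atp5g1 supplied 17.4% of its pair with Atp5g3 in cortex and 17.6% in hippocampus (0.607), and Atp5g2 1.54% and 1.67% (0.183). By genotype, 42 exact tests of these ratios gave 0 past the adjusted threshold and 3 at an unadjusted p under 0.05. The smallest adjusted p was 0.184, in cortex labelled double het, where Atp5g2 to Atp5g3 differed from wild type by -0.29 (exact permutation p 0.00507) and Atp5g1 to Atp5g3 by -0.16 (0.00874).

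**Figure D3:**
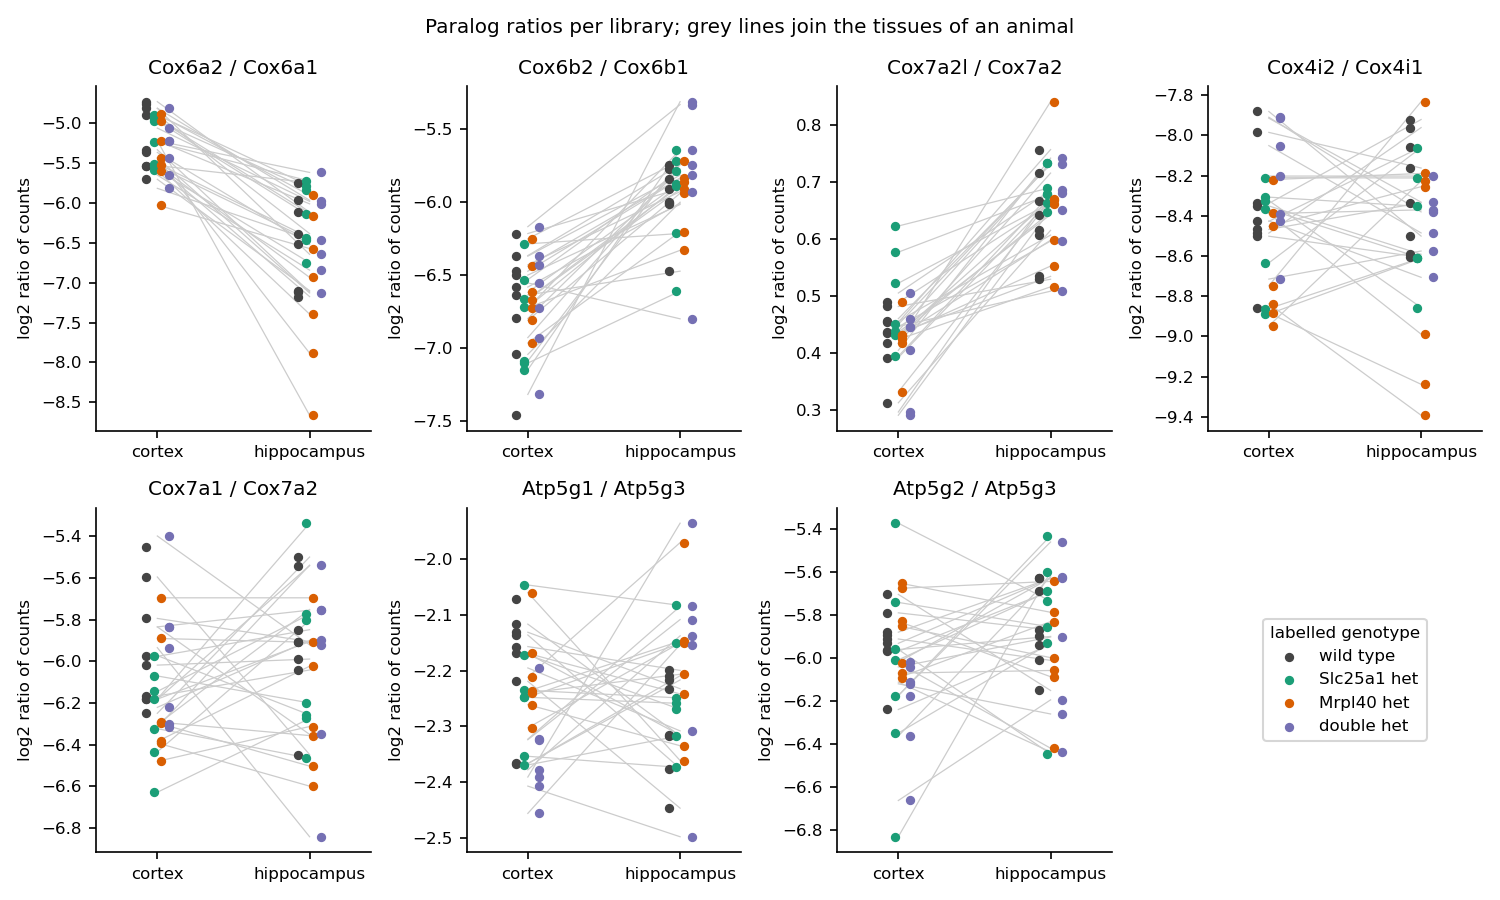
Log2 ratio of the counts of paralogs in every library, by tissue, with grey lines joining the 2 tissues of an animal and colours giving the labelled genotype. The Cox6a2 to Cox6a1 lines all fall towards hippocampus, those of Cox7a2l to Cox7a2 all rise, and all but 1 of those of Cox6b2 to Cox6b1 rise.

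No member passed in any comparison of genotypes by edgeR, and complex IV genes lay slightly below wild type in each labelled genotype of either tissue. The share of all genes that passed was itself small: in cortex 0% for Slc25a1 het, 0.0294% for Mrpl40 het and 0.0686% for double het (0.049% lower), and in hippocampus 0%, 0.00496% and 0.00992%. At an unadjusted p under 0.05, 5, 8 and 8 of 44 members lay in the 3 cortex comparisons (3.17%, 6.94% and 10.9% of all genes) and 13, 2 and 8 in the 3 hippocampus comparisons (7.77%, 8.19% and 5.28% of all genes). DESeq2's Wald test called 1 member in cortex Mrpl40 het, 3 in cortex double het and 0 in the 4 others. In no comparison with wild type did the CPM of a member not overlap between the groups (0 of 44, against 0.0343%, 0.0343% and 0.0981% of all genes in cortex and 0.169%, 0.0694% and 0.0446% in hippocampus). The 3 comparisons of a tissue share their wild-type libraries, so values that stand side by side are not independent.

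In cortex, 32, 28 and 27 of 44 members lay below wild type in Slc25a1 het, Mrpl40 het and double het, with medians of -0.026, -0.017 and -0.017, against 50.3%, 51.0% and 51.4% of all genes. The size of these medians moved with 1 library left out, though they stayed below 0. They ranged from -0.039 (without Slc25a1 het animal 16) to -0.0082 (without animal 14) in Slc25a1 het, from -0.047 (without Mrpl40 het animal 19) to -0.0072 (without animal 20) in Mrpl40 het, and from -0.023 (without double het animal 28) to -0.0072 (without animal 25) in double het. By complex, complex IV members lay below in 13, 15 and 11 of 15, with medians of -0.060, -0.081 and -0.086. Complex III members lay below in 6, 7 and 6 of 9, complex V members in 10, 6 and 9 of 16, and complex II members in 3, 0 and 1 of 4. With length and GC content trends taken out, the medians over all members turned to 0.0060 in Mrpl40 het and 0.0099 in double het, and 12 of 15 complex IV members lay below in Mrpl40 het. The members are shorter than genes at large, with a median length of all exons joined of 1716 bases against 3596.

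The cortex members nearest to the threshold were small subunits of complexes III and IV. Uqcrq (chr11:53427922-53430831, minus strand) ranged from 58.4 to 64.9 CPM in wild type (median 61.2) and from 48.5 to 59.7 CPM in double het (median 54.1). In Slc25a1 het its median was 57.2 CPM (51.1 to 60.5) and in Mrpl40 het 57.3 CPM (52.7 to 63.1). Wild type was the highest group, and each of the other groups overlapped it. The log2 fold change in double het was -0.17 ± 0.038 (SE, adjusted p 0.0599), in Slc25a1 het -0.12 ± 0.038 (adjusted p 1) and in Mrpl40 het -0.09 ± 0.038 (0.629). Without double het replicate 3 (animal 27) or 4 (animal 28) Uqcrq passed in double het by edgeR (adjusted p 0.0327 and 0.041).

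Uqcr11 (chr10:80402997-80406830, minus strand), the smallest subunit of complex III, ranged from 41.0 to 45.8 CPM in wild type (median 43.4) and from 36.0 to 42.8 CPM in Mrpl40 het (median 37.3). Its medians in Slc25a1 het and double het were 38.4 and 38.2 CPM. All 3 groups lay mostly below wild type, and all overlapped it. The log2 fold change was -0.19 ± 0.043 (adjusted p 0.111) in Mrpl40 het, -0.15 ± 0.043 (1) in Slc25a1 het and -0.17 ± 0.043 (0.108) in double het. Without Mrpl40 het replicate 2 (animal 19) Uqcr11 passed in Mrpl40 het (adjusted p 0.0305).

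Cox6b1 (chr7:30616861-30626151, minus strand), which joins the monomers of the complex IV dimer, ranged from 125.6 to 139.6 CPM in wild type (median 130.9) and from 114.4 to 128.5 CPM in double het (median 121.5). In Slc25a1 het it ranged from 116.0 to 131.5 CPM and in Mrpl40 het from 118.7 to 131.3 CPM. Wild type again stood highest, with overlap at the edges. Its log2 fold change was -0.13 ± 0.032 in double het (adjusted p 0.0779), -0.10 ± 0.031 in Slc25a1 het (1) and -0.10 ± 0.031 in Mrpl40 het (0.493).

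Cox8a (chr19:7215153-7217616, minus strand) ranged from 201.0 to 227.7 CPM in wild type (median 214.2) and from 188.5 to 205.3 CPM in double het (median 196.0). The double het libraries lay low and overlapped wild type at their top end, at -0.12 ± 0.029 (adjusted p 0.0779). By DESeq2's Wald test Uqcrq (adjusted p 0.0107), Cox6b1 (0.0154) and Cox8a (0.00947) passed in double het and Uqcr11 (0.0289) in Mrpl40 het. These calls depend on the tool, and the fold changes moved with the processing. Over the alternatives Cox8a ranged from -0.14 to -0.049 and Cox6b1 from -0.14 to -0.081 in double het. Uqcrq ranged there from -0.17 to -0.14, and Uqcr11 in Mrpl40 het from -0.20 to -0.14. Large catalytic subunits were not among these genes. Sdha ranged from 405.6 to 438.7 CPM in cortex wild type (median 420.6) and from 427.8 to 456.5 CPM in double het (median 441.4), the higher group.

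Microglia and astrocyte markers lay lower by fold change in cortex labelled double het and Mrpl40 het, and oligodendrocyte markers higher. Their sums overlapped those of wild type in each case. In double het each of the 8 microglia markers was under the wild-type level (median -0.13, 1 passing), with sums of 319.4 to 365.2 CPM against 338.2 to 423.1 CPM, and all 7 astrocyte markers lay below (median -0.085). In Mrpl40 het all 8 microglia markers (median -0.10), all 7 astrocyte markers (-0.075) and all 6 endothelial markers (-0.12) lay below, and 0 of 6 neuron markers. None of 6 oligodendrocyte markers lay below in these groups, and none of them passed. Their sums had medians of 2600 CPM in Mrpl40 het (1549 to 3729) and 2500 CPM in double het (1755 to 3254). In wild type the median was 2256 CPM (1688 to 2718), a wide overlap. In Slc25a1 het 6 of 8 microglia markers lay below (median -0.022), and the astrocyte sum had a median of 4851 CPM against 4749 CPM in wild type. Their part in the values of the subunits was not tested.

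**Figure D4:**
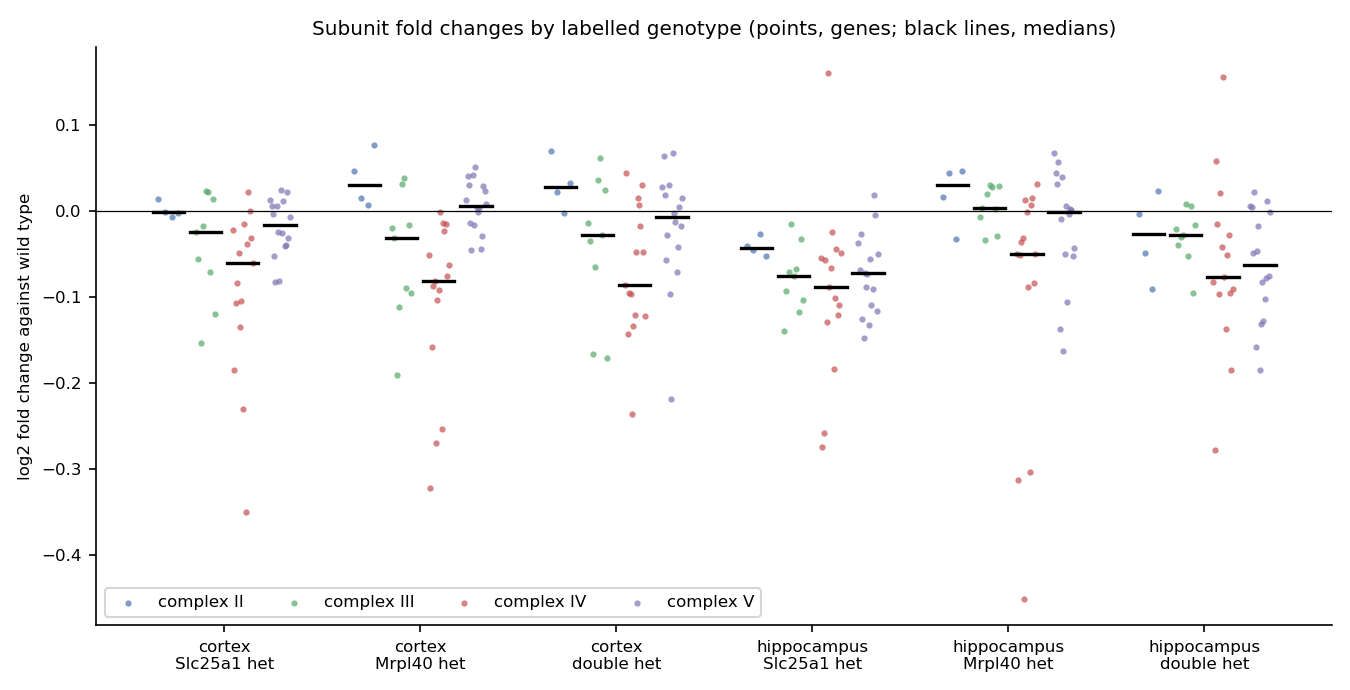
Log2 fold change against wild type of each of the 44 members, by tissue, labelled genotype and complex; points are genes and black lines medians. The complex IV medians lie below 0 in all 6 comparisons. The medians of all 4 complexes do so in Slc25a1 het of either tissue and in double het of hippocampus.

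In hippocampus labelled Slc25a1 het nearly every member lay below wild type. Of 44 members 42 lay below, with a median of -0.072, against 48.1% of all genes and a median of 0.0045. All 4 members of complex II, all 9 of complex III (median -0.076), 14 of 15 of complex IV (-0.089) and 15 of 16 of complex V (-0.073) lay below. Leaving out any library kept the count between 40 and 42, and leaving out the 6 animals gave 40. In Mrpl40 het 23 of 44 lay below (median -0.0018) and in double het 34 of 44 (median -0.048), against 52.9% and 51.4% of all genes. In Mrpl40 het the sign of the median turned with the processing and with 1 library left out (from -0.027 to 0.0074), and complex IV lay below in 11 of 15 (median -0.050). In double het complex IV lay below in 12 of 15 (median -0.076) and complex V in 12 of 16 (-0.062).

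The members with the smallest p against wild type in hippocampus were mostly genes of complex V. Atp5g3 ranged from 174.3 to 192.6 CPM in wild type (median 179.4) and from 154.2 to 178.3 CPM in Slc25a1 het (median 163.1). In double het it ranged from 150.7 to 178.1 CPM (median 165.8) and in Mrpl40 het from 166.0 to 191.4 CPM (median 173.3). Below every wild-type library lay 6 of 7 Slc25a1 het, 5 of 7 double het and 4 of 7 Mrpl40 het libraries. Each group overlapped wild type. The log2 fold change was -0.13 ± 0.037 (adjusted p 0.457) in Slc25a1 het and -0.13 ± 0.037 (0.7) in double het.

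Cyc1 ranged from 97.5 to 111.6 CPM in hippocampus wild type (median 102.7) and from 84.6 to 99.3 CPM in Slc25a1 het (median 93.2). In Mrpl40 het and double het its medians were 99.4 and 100.3 CPM. The Slc25a1 het group lay lowest, still overlapping wild type, at -0.14 ± 0.040 (adjusted p 0.457). Atp5e ranged from 39.7 to 51.7 CPM in wild type (median 43.9) and from 36.9 to 41.8 CPM in Slc25a1 het (median 40.6). Its log2 fold changes were -0.15 ± 0.048 in Slc25a1 het (adjusted p 0.5), -0.14 ± 0.048 in Mrpl40 het (0.587) and -0.16 ± 0.048 in double het (0.704), with overlap in each.

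Atp5j ranged from 90.9 to 111.1 CPM in hippocampus wild type (median 95.9), from 88.9 to 93.3 CPM in Mrpl40 het (median 91.3) and from 86.3 to 92.9 CPM in double het (median 88.5). Both groups were low and narrow and overlapped wild type, at -0.11 ± 0.036 (adjusted p 0.587) and -0.13 ± 0.036 (0.674). Cox6c, a subunit of complex IV, was also among the smallest p in Mrpl40 het, at -0.09 ± 0.044 (0.608). Atp5b, in comparison, had medians of 995.3 CPM in wild type and 946.6 CPM in Slc25a1 het.

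In hippocampus labelled Slc25a1 het 5 of 6 neuron markers lay below wild type (median -0.16), with sums of 4345 to 5082 CPM against 5025 to 5886 CPM. The 4 excitatory neuron markers had a median sum of 8095 CPM against 8044 CPM in wild type, and 5 of 8 interneuron markers lay below, by a median of -0.014. None of 7 astrocyte markers lay below (median 0.094), with sums of 5140 to 6818 CPM against 5027 to 6236 CPM. The 5 cerebellar markers tested had a median log2 fold change of 2.10, and animal 12, with a sum of 594 CPM, is in this group. The median sum of the 7 cerebellar markers listed was 42.9 CPM in this group, against 56.9 CPM in wild type. Without the 3 libraries that stand apart 42 of 44 members still lay below, and the part of the neuron and astrocyte markers was not tested.

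**Figure D5:**
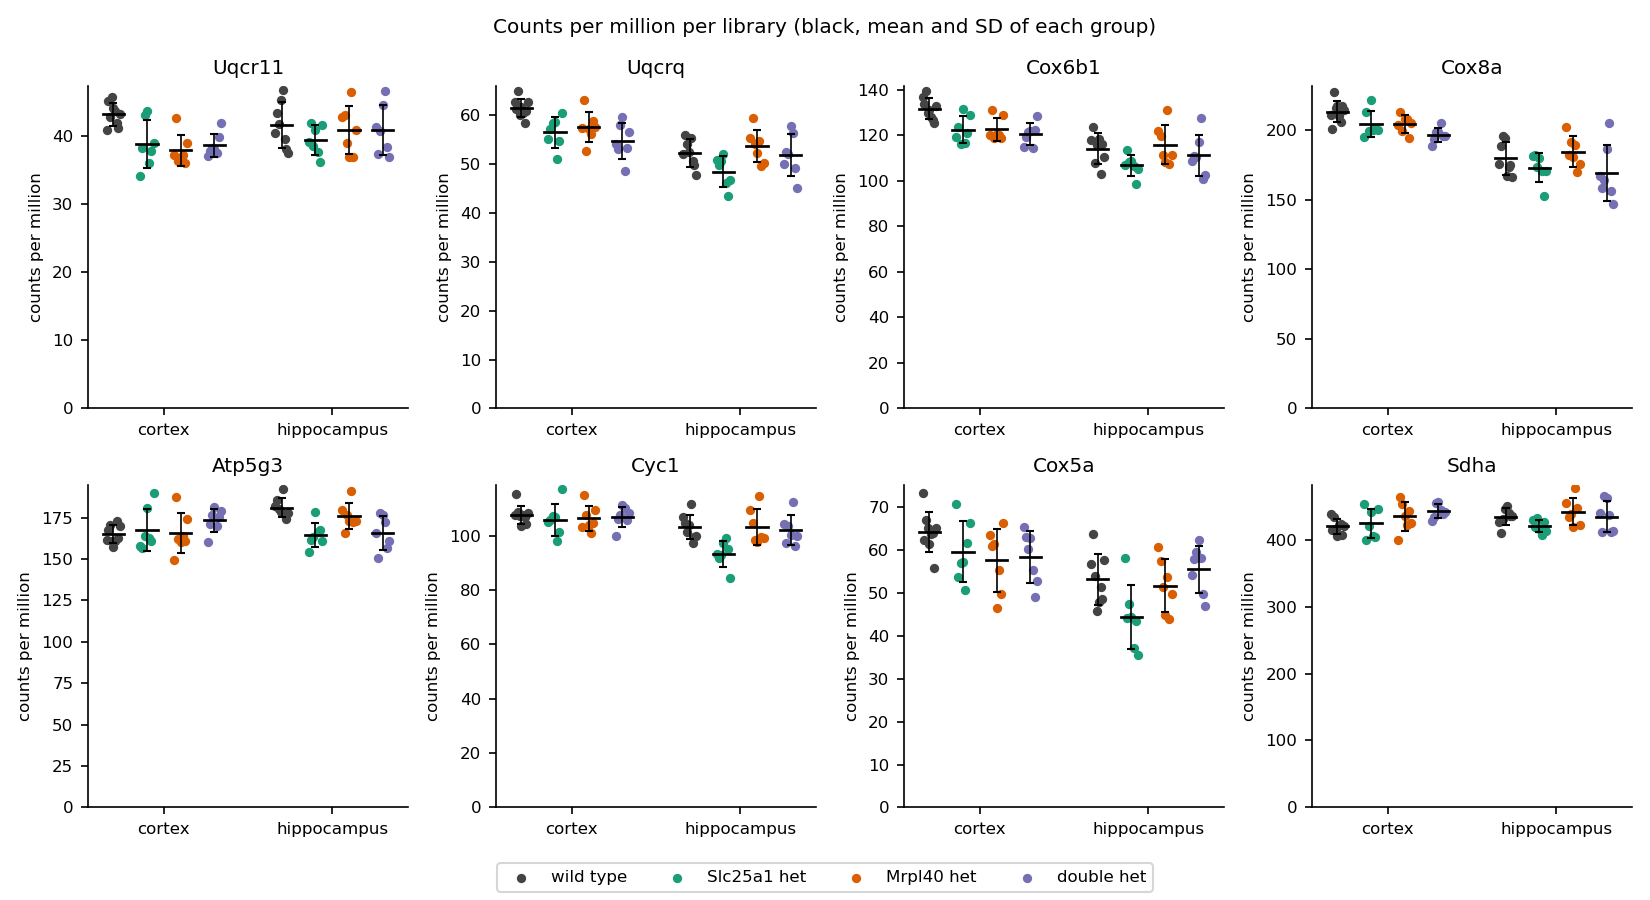
CPM of 8 members in every library, by tissue and labelled genotype, with the mean and SD of each group in black. Wild type is the highest group in cortex for Uqcr11, Uqcrq, Cox6b1 and Cox8a, and Slc25a1 het the lowest in hippocampus for Cyc1 and Cox5a, with overlap in each panel.

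The interaction asked whether the double het differs from the sum of both single effects, and 0 of 44 members passed in either tissue, against 0% of all genes. At an unadjusted p under 0.05 edgeR had 4 members in cortex and 2 in hippocampus (5.35% and 3.39% of all genes), and DESeq2 called 0. In cortex the smallest p were those of Uqcr11 (0.18 ± 0.063, adjusted p 0.81), Cox7a1 (0.62 ± 0.24, 0.82) and Cox4i2 (0.55 ± 0.24, 0.895). Positive values mean that the double het lies above the sum, as for Uqcr11, which was about equally low in all 3 groups. In hippocampus Cox5a (0.37 ± 0.13, 0.999), Cyc1 (0.13 ± 0.058) and Atp5e (0.13 ± 0.068, 0.999) led.

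Double het against each single het gave 0 members past the threshold in all 4 comparisons by edgeR and by DESeq2, against 0.0588% of all genes for Slc25a1 het and 0.0049% for Mrpl40 het in cortex and 0% for both in hippocampus. At an unadjusted p under 0.05 there were 3 and 1 of 44 members in cortex (9.92% and 6.94% of all genes) and 4 and 7 in hippocampus (9.04% and 4.68% of all genes). Cox5a in hippocampus ranged from 35.5 to 58.2 CPM in Slc25a1 het (median 44.2) and from 47.1 to 62.4 CPM in double het (median 57.9). The groups overlapped, at 0.32 ± 0.092 (adjusted p 0.363). Against Mrpl40 het, Sdhb in hippocampus was at -0.09 ± 0.037 (0.958). In cortex Cox7a1 stood at 0.37 ± 0.17 against Slc25a1 het (0.486), and Cox4i2 at 0.37 ± 0.17 against Mrpl40 het (0.695), from medians of 1.21 and 0.773 CPM.

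Whether a genotype acts differently in the tissues was tested as a difference of the 2 effects within animals. No member passed for Slc25a1 het, Mrpl40 het or double het, against 0%, 0% and 0.0234% of all genes (0.00468% lower, for double het), with 6, 2 and 9 of 45 at an unadjusted p under 0.05 (6.00%, 5.83% and 5.03% of all genes) and 0 by DESeq2. Atp5g3 had the smallest p in Slc25a1 het (-0.16 ± 0.055, adjusted p 0.816) and in double het (-0.20 ± 0.055, 0.402), lower in hippocampus relative to cortex. In Mrpl40 het it was Uqcr11 at 0.17 ± 0.067 (0.829).

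Other genes of the pathway were read from lists by function. Between the tissues 37.7% of all genes tested were lower and 39.8% higher in hippocampus, the shares to set beside the tissue counts that follow. Of the 36 nuclear subunits of complex I 18 were lower and 6 higher in hippocampus (median -0.043). Of 8 genes for cytochrome c and the export of ATP 5 were lower and 2 higher (median -0.11). Of the assembly factors for complex II 1 of 4 was lower and 3 higher (median 0.12), and for complex III 3 and 4 of 7 tested (0.066). For complex IV and its copper supply they were 9 and 5 of 23 tested (-0.035), and for complex V 2 and 1 of 5 tested (0.013). These lists are short, and a difference between the complexes was not tested. Of 14 regulators of mitochondrial biogenesis 7 were lower and 6 higher (median -0.011). By genotype 0 genes of these lists passed in the comparisons with wild type. In hippocampus labelled Slc25a1 het 48.1% of all genes lay below wild type. So did 35 of 36 complex I subunits (median -0.085) and 8 of 8 genes for cytochrome c and ATP export (-0.087). The same held for 4 of 4 complex II and 5 of 5 complex V assembly factors. Median sums of the other lists were 217.2 CPM against 229.7 CPM in wild type for complex III assembly and 513.2 against 536.1 for complex IV assembly. For the biogenesis regulators they were 702.7 against 706.3 CPM.

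Members differed in how far animals of a group lie apart. Among the 38 members at 10 CPM or more in cortex, the SD of log2 CPM within groups had a median of 0.076, and Uqcrb (0.17) and Cox5a (0.15) were the most variable. In hippocampus, with 39 such members, the median was 0.081, and Cox5a (0.18) and Uqcrb (0.15) led again. Both genes share windows with copies. Across the 29 animals 0 of 44 members correlated between the tissues past the adjusted threshold, against 1.18% of 19463 genes. Cox5b (Pearson's r 0.58, Spearman's rho 0.488, adjusted permutation p 0.128, r 0.406 without the 2 animals farthest from the median) and Cox5a (0.562, 0.452, 0.128 and 0.506) came nearest.

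The genes nearest to each tissue-restricted paralog were sought among 16491 genes. The measure was Pearson's r over the cortex libraries of log2 CPM less the mean of the library's group. The 5 genes of highest r were taken for each, as a description with no p over libraries that share depth and preparation. For Cox6a2 these were Nudt3 (r 0.893 over 30 cortex libraries, 0.687 over 29 hippocampus libraries), Mars (0.872 and 0.317), Nabp2 (0.870 and 0.380), Atf5 (0.869 and 0.600) and Yars (0.868 and 0.197). For Cox4i2 the nearest were Rtl1 (0.780 and -0.051), Rpsa (0.723 and 0.589), Tsta3 (0.693 and 0.328), the predicted gene Gm42769 (0.685 and 0.285) and Rchy1 (0.683 and -0.088). For Cox6b2 they were Cers5 (0.705 and -0.0050), Foxn2 (0.655 and -0.072), Baiap2l1, Rhpn1 and Amh (0.633 and -0.21), and for Cox7a1, Il12rb2 (0.606 and 0.025), Zfp839, Psmc3, a gene known by a clone name and Praf2 (0.543 and 0.062). Nudt3 and Atf5 for Cox6a2 and Rpsa for Cox4i2 kept an r of 0.589 or more in hippocampus, and the others lay at 0.380 or less.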

How the data were processed

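Poly(A) RNA of mouse cortex and hippocampus was measured in 59 directional libraries. The authors deposited raw counts per gene, and per the submitters' processing notes FastQC, HISAT2, featureCounts and DESeq2 and the builds mm39 and GRCm39 were used, with no versions given. Their normalized table was not used. Gene positions and lengths come from GENCODE vM21 on GRCm38.

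Counts were fitted with edgeR 4.0.16 (TMM, filterByExpr, quasi-likelihood F test, robust, Benjamini-Hochberg adjustment over all genes, threshold 0.05) in R 4.3.3, all 4 genotypes of a tissue together. The tissue fit held 29 animals as blocks, since both tissues come from the same animal. The median correlation of deviations was 0.105 over 29 animals, against -0.00625 between tissues of different animals. CPM used TMM library sizes and paralog ratios a pseudocount of 0.5. Ratios and correlations were tested by permutation in scipy 1.17.1. The self-test ran on simulated data.

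Members and lists were chosen with earlier results of these data known. Members were named if they passed or had the smallest p by genotype, were among the largest rises and falls of their complex between tissues, or are catalytic, core or paralog genes; any other was named after its values were seen. The 5 genes nearest to each of 4 paralogs were named by correlation over cortex libraries. Alternatives were DESeq2's Wald test and size factors, no filter, length and GC offsets, blocks, and leaving out libraries or animals. Replicates are separate animals per the labels. SE and 95% intervals come from the edgeR fit and hold the spread between animals; the upper limit for a count of 0 covers counting error only.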

Additional observations from a re-analysis of the deposited data

Results flagged for a closer look

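Within each group of 7 to 9 libraries, the highest and lowest values were set against the gap to the nearest library, for the CPM of 35 members and for the mean log2 CPM of each complex and of all members. Of these 320 groups of values 17 held one that stood apart. Chance gives about 1 in 20 such groups.

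In cortex the Mrpl40 het library of animal 19 was highest for Cox4i1 (396 CPM, nearest 353), Cox6a1 (153 CPM, nearest 138), Cox7a2 (80.4 CPM, nearest 70.2), Cox7c (14.1 CPM, nearest 11.5), Atp5j (109 CPM, nearest 97.8) and Atp5k (50.6 CPM, nearest 44.8), and for the mean log2 CPM of complex IV (5.13, nearest 4.98). This library was the highest of its 7 for 34 of 44 members. The other Mrpl40 het value apart in cortex was Atp5d in animal 24, at 129.7 CPM (nearest 122.7). Slc25a1 het animal 13 had Cox6a1 at 156 CPM (nearest 140.5), and animal 16 a complex IV mean of 5.07 log2 CPM (nearest 4.96). In wild type, Atp5j stood at 105 CPM in animal 3 (nearest 98.8) and Cyc1 at 115 CPM in animal 2 (nearest 109).

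In hippocampus the Mrpl40 het library of animal 22, which also stands apart by choroid plexus markers, had Uqcrc2 at 194 CPM (nearest 175.5) and Uqcrh at 97.2 CPM (nearest 89.7). The low values were Cox8a in Slc25a1 het animal 15 at 152 CPM (nearest 170.4), Atp5k in double het animal 31 at 30.5 CPM (nearest 36.6) and Cox6b2 in wild-type animal 9 at 1.22 CPM (nearest 1.78).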

How the results depend on the processing

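Of the alternatives to the counts of called members, 162 stayed within 1.5 times the reported count and 2 rose: DESeq2's Wald test called 1 member in cortex Mrpl40 het and 3 in cortex double het, in place of 0. Leaving out 1 library gave 0 to 1 called members in each of these 2 comparisons and 0 in the other comparisons of genotypes within a tissue; the tissue comparisons were not run that way. For single members, paralog ratios, medians and counts of members below 0, 720 values counted as unchanged. A member or ratio then kept direction and call, and a median kept its sign, though its size could change. A count of members below 0 then stayed within 1.5 times the reported count. Of the rest, 5 members passed where they had not, 10 values turned and 7 were weaker. The 7 are 5 lost calls, named in the report, and the count of members below Slc25a1 het in cortex double het, which was 20 and went to 13 with length and GC offsets and 12 without the 6 animals. With length and GC offsets Cyc1 (0.03662) and Sdha (-0.02739) turned between the tissues, as did the members' medians in cortex Mrpl40 het (0.00596), cortex double het (0.00989) and hippocampus Mrpl40 het (0.0176). The last also turned with no filter (0.00253), DESeq2's Wald test (0.00356) and DESeq2 size factors (0.00427). Sdha, tissue difference, mean over genotypes, also turned without the libraries that stand apart (-0.000313), as did the wild-type median without the 6 animals (0.00224). The cause was not tested. Replicate numbers name separate animals per the labels and were not taken as pairs. Libraries of a tissue sharing a number across genotypes had a median correlation of 0.0709 (from -0.278 to 0.37). With different numbers it was -0.00939 (from -0.508 to 0.559), and what lies behind this was not tested. With the replicate block 0 members passed. The medians were then -0.0344, -0.0234 and -0.0257 in cortex and -0.0811, -0.0279 and -0.0504 in hippocampus. Without the block of animals the tissue difference had 31 called members, 10 higher and 21 lower. Depth limits the forms near or under 1 CPM.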
